A study of Oryza sativa with 20 samples.

Results

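Small RNA of the lamina joint was set against that of the blade at S1, the first of 5 labelled stages. Both tissues were cut from the first complete leaf of Oryza sativa (rice) seedlings, in a series that follows the leaf until its angle forms. The samples were chosen by their titles: 4 of the 20 small RNA libraries of the series, 2 from the lamina joint at S1 and 2 from the blade at S1. The labels give the species and name no cultivar, genotype or treatment, and both groups grew in water with 16 h of light and 8 h of dark a day. Tissue was cut on days 4, 5, 6, 7 and 9 after germination, and the labels do not tie a day to a stage. The pieces were under 1 mm of lamina joint and under 10 mm of blade, so each library holds a mixture of the cell types of that piece. In such tissue, fewer cells of a type and less RNA per cell cannot be told apart.

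The lamina joint is the hinge at which the leaf blade bends away from the sheath, and its growth sets the leaf angle. Plant microRNAs are short RNAs that guide the cleavage or the translational block of matching messages, many of which encode transcription factors and hormone receptors. In rice, excess of miR393, which acts on auxin receptor messages, and of miR396 forms, which act on growth-regulating factors, is known to change leaf angle. The count files list numbered tags without miRNA names or sequences, so no tag below can be tied to these families. For the same reason no tissue marker could be read and no sequence is shown, and tags are given by number or by their rank of mean abundance at S1.

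At S1, 23 of 299 tested tags differed, 9 of them higher and 14 lower in the lamina joint relative to the blade (edgeR quasi-likelihood test, Benjamini-Hochberg adjusted p under 0.05). That is 7.69% of the tested tags, 3.01% higher and 4.68% lower. Higher tags had a median difference (lamina joint minus blade) of 3.03 log2 units and lower tags one of -2.69, beside -0.02 for all tested tags. The largest positive difference among called tags counted in all 4 libraries belonged to tag_001, at 4.51 ± 0.64 (log2, SE), and the largest negative one to tag_227, at -4.82 ± 0.61 (log2, SE). These calls rest on a spread estimated from all 20 libraries: on the 4 S1 libraries alone edgeR called 0 tags (38 at an unadjusted p under 0.05), limma-voom 4 and DESeq2 18. With 2 libraries against 2, an exact two-sided permutation test of a single tag cannot go below p = 0.333.

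**Figure D1:**
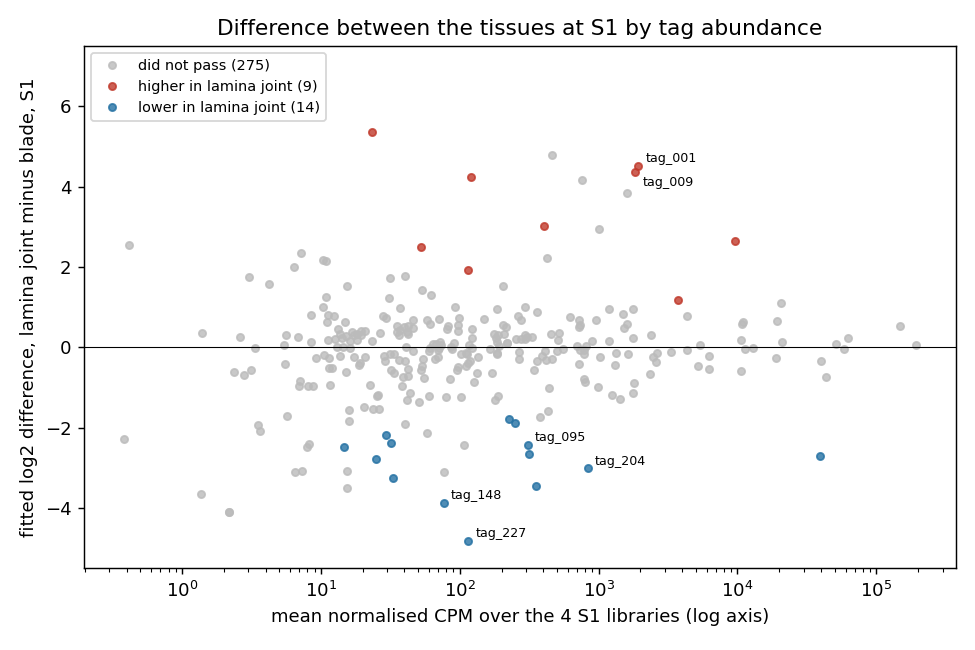
Fitted log2 difference (lamina joint minus blade at S1) against mean normalised CPM over the 4 S1 libraries, on a log axis, 1 point per tag; 1 of the 299 tested tags had no count at S1 and is not drawn. The 9 higher and 14 lower tags spread over the range of abundance, and several grey points with large differences at 100 CPM and above did not pass.

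The replicates of the lamina joint at S1 lay farther apart than those of any other group. Their root mean square distance over the tested tags was 1.63 on the log2 CPM scale, against 1.07 for the blade at S1 and 0.749 to 1.22 for the other 8 groups. The second lamina joint library was nearer to the second blade library, at 1.26, than to its own replicate. The first lamina joint library was also nearer to both blade libraries of S1, at 1.33 and 1.59, than to its own replicate. It was nearer to the lamina joint libraries of S2, at 0.962 and 1.01, than to the other 3 libraries of S1. The second lamina joint library lay 1.63 and 1.70 from those S2 libraries, farther than from the second blade library of S1. Totals at S1 were 516624 and 248416 counts in the lamina joint and 640801 and 337724 counts in the blade, so the second library was the smaller in both tissues. The replicates of neither tissue were 1 library deposited under 2 names, since their counts differed by more than counting noise. Separate plants or cultures behind the replicates are not mentioned in the labels, so p-values measure the spread between libraries, which may be technical. That spread is pooled over 10 groups, among which the S1 groups ranked 1 (lamina joint) and 3 (blade) by replicate distance. It may therefore understate the spread at S1 and make the S1 p-values too small.

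Some tags lay far apart between the lamina joint libraries. In 11 tags the second had at least 100 CPM and at least 10 times the level of the first lamina joint library, while 1 tag met the same rule the other way round. The 11 summed to 691 and 28893 CPM in the lamina joint and to 6981 and 11580 CPM in the blade at S1. Over S2 to S5 they summed to between 1257 and 41176 CPM in the lamina joint and between 10981 and 32646 CPM in the blade. The first lamina joint library of S1 was the lowest of all 20, which follows in part from choosing the tags by their low level in it. In 4 of the 11 the second library also exceeded both blade libraries at least 10 times. These 4 tags, picked after their values were seen, summed to 282 and 13911 CPM in the lamina joint and to 184 and 928 CPM in the blade at S1. They summed to 148 to 538 CPM in the 12 libraries of S2 to S4. At S5 they had 725 and 15258 CPM in the lamina joint, again in the second library, and 537 and 598 CPM in the blade. Whether RNA of another sample or tissue was present in any of these libraries was not tested, and the tissue difference at S1 is read with that limit. None of the 11 passed the test, although the 4 include fitted differences between 2.95 and 4.79 on the log2 scale with SEs between 1.05 and 2.80. The tags were chosen by a wide gap between replicates, which raises the SE, so their not passing was in part set by the choice.

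Calls were also made without each S1 library in turn. Without the second lamina joint library 23 tags were called, 16 of them among the 23 called with all libraries and in the same direction. Without the first lamina joint library 18 were called, of which 13 were shared in that way. The count was 11 without the first blade library and 12 without the second, and in both fits all of those were among the 23. A group left with 1 library is assumed to vary like the others. Over 36 alternative fits of the S1 difference, each of the 23 tags kept its sign wherever it was fitted. That was in 35 fits for the tag of rank 220 and in 36 for the others. These fits reuse the S1 libraries, in which the tissues did not overlap for any of the 23. A kept sign was thus largely fixed in advance. The calls held less often than the signs. None of the 23 was called in all of these fits, 4 were called in all but 1, and the tags of ranks 245, 210, 203 and 131 were called in 10, 12, 14 and 16.

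Tags higher in the lamina joint held 4.62% and 2.07% of the counts of its libraries, against 0.621% and 0.587% in the blade. Of the 9 tags, 4 averaged at least 1000 CPM in the lamina joint. Levels here are normalised CPM, counts scaled to effective library sizes. Tag_001 had 5131 and 2275 CPM in the lamina joint and 157 and 168 CPM in the blade. Both lamina joint libraries lay far above both blade libraries (log2 4.51 ± 0.64, SE; edgeR adjusted p = 0.000557). The difference of tag_001 was 3.81 without the first lamina joint library and 5.07 without the second. Tag_009 was close to it in level and pattern, with 4656 and 2376 CPM in the lamina joint and 154 and 187 CPM in the blade (log2 4.37 ± 0.69, SE; edgeR adjusted p = 0.00074). For both, the ratio of summed counts scaled by library size was 26.7 (95% counting interval 22.9 to 31.2) and 23.9 (20.6 to 28.0), in that order.

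The most abundant of the higher tags ranked 19 at S1. It had 23535 and 9490 CPM in the lamina joint and 3146 and 2109 CPM in the blade. Its lamina joint libraries differed widely from each other and still did not overlap the blade, and its difference ran between 1.85 and 3.28 (log2) over the alternative fits. The tag of rank 26 had replicates that agreed closely, at 4802 and 5520 CPM in the lamina joint and 2439 and 2126 CPM in the blade, and the smallest called difference, 1.18 ± 0.30 (log2, SE; edgeR adjusted p = 0.0291). Ranks 81 and 128 had 719 ± 174 and 228 ± 20.2 CPM in the lamina joint (SD, n = 2), against 88.0 ± 9.19 and 11.7 ± 2.92 CPM in the blade (SD, n = 2). The tag of rank 220 came closest to being limited to 1 tissue. It had 36 and 8 counts in the lamina joint and 1 and 0 counts in the blade, a ratio of 55.4 with a 95% counting interval of 9.44 to 2239. No called tag had a count in 1 tissue only.

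Of the 14 tags lower in the lamina joint, 2 averaged at least 1000 CPM in the blade. The tag of rank 8 had 7980 and 12647 CPM in the lamina joint and 82411 and 53157 CPM in the blade (log2 -2.72 ± 0.42, SE; edgeR adjusted p = 0.000739). It alone made up most of the share of the 14 lower tags, which held 0.992% and 1.35% of lamina joint counts, against 8.90% and 7.13% of blade counts. Tag_227 had 4.97 and 12.1 CPM in the lamina joint, from 3 counts in each library, and 157 and 285 CPM in the blade (log2 -4.82 ± 0.61, SE; edgeR adjusted p = 0.000391). The ratio of its summed counts was 0.0341 (95% counting interval 0.0124 to 0.0753). The difference of tag_227 was -4.16 without the first lamina joint library and -4.10 without the second blade library. Tag_148 had 3.31 and 20.1 CPM in the lamina joint and 104 and 180 CPM in the blade (log2 -3.86 ± 0.70, SE; edgeR adjusted p = 0.00236). Its lamina joint values rest on 2 and 5 counts, and both lay below the blade. The difference of tag_148 was -2.79 without the first lamina joint library, -5.25 without the second and -3.20 without the second blade library.

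**Figure D2:**
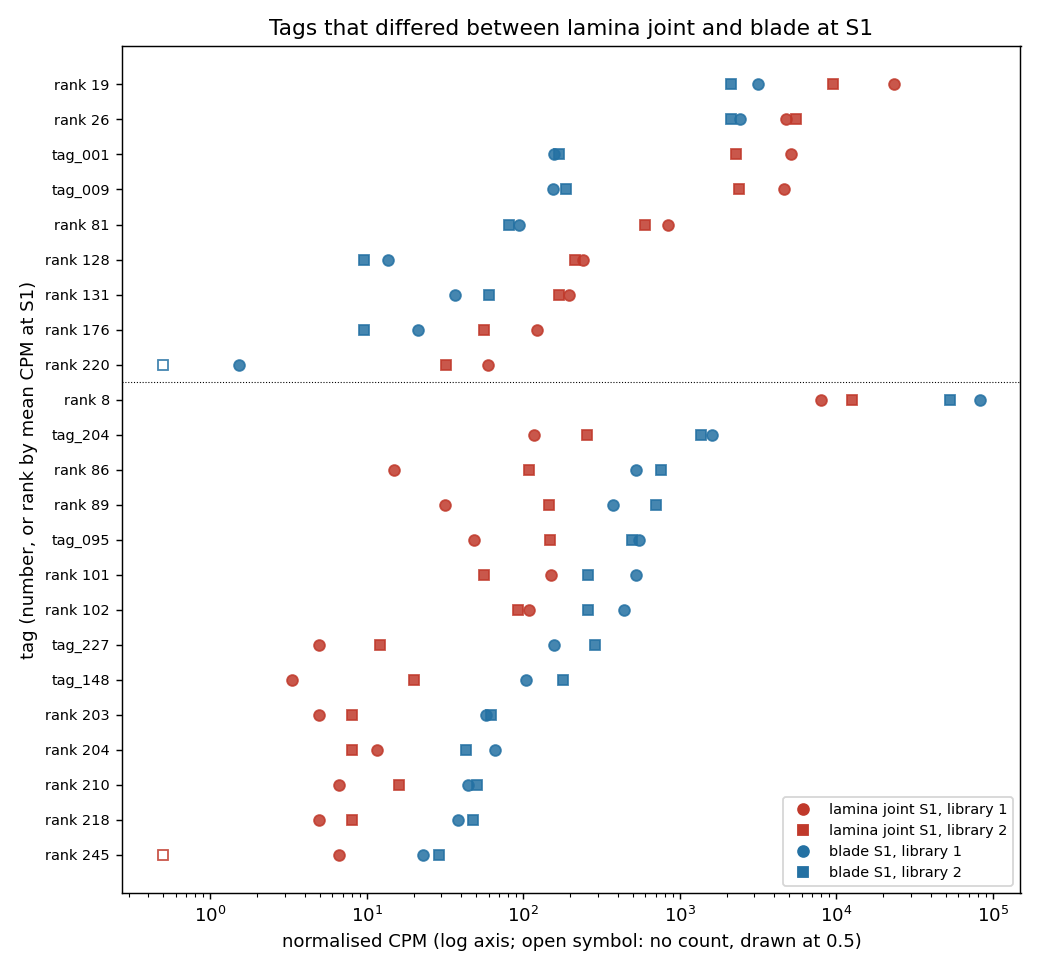
Normalised CPM (log axis) of the 23 tags called at S1 in each of the 4 S1 libraries, with the 9 higher tags above the dotted line and the 14 lower tags under it; red symbols are lamina joint, blue are blade, circles the first and squares the second library. In each of these tags the tissues do not overlap, and the second lamina joint library is often the one nearer to the blade.

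The 23 called tags all had lamina joint values that did not overlap the blade values, as did 128 of the 299 tested tags, 42.8% of them. Of the 128, 50 (16.7% of the tested tags) lay above the blade and 78 (26.1%) below it. Within the 23, the second lamina joint library was nearer to the blade mean than the first in 18 tags. In the 67 tags called for the mean difference over S2 to S5, it was nearer in 46, and over all tested tags in 149 of 299. Replicate number and depth move together here; their part in the results was not tested.

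By mean level over all 20 libraries, calls were made in 1 of 12 tags under 10 CPM, in 8 of 139 between 10 and 100 CPM, in 11 of 100 between 100 and 1000 CPM, and in 3 of 48 at 1000 CPM or above. The median SE of the difference in these classes was 1.22, 0.67, 0.48 and 0.41 on the log2 scale. Differences in tags of few counts were thus measured less precisely.

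Of the 10 leading tags at S1, 1 was lower in the lamina joint, the tag of rank 8, and 9 did not pass. The leading tag took 12.3% (exact 95% binomial interval 12.2 to 12.4) and 28.8% (28.6 to 29.0) of the lamina joint libraries, against 20.3% (20.2 to 20.4) and 22.1% (21.9 to 22.2) of the blade libraries. The values of the lamina joint thus lay on either side of those of the blade, and the fitted difference was 0.06 ± 0.35 (log2, SE). The tag of rank 2 had 186753 and 166131 CPM in the lamina joint and 131284 and 112195 CPM in the blade, and that of rank 6 had 26376 and 39015 CPM in the lamina joint and 58069 and 50858 CPM in the blade. Neither pair of groups overlapped and neither tag passed (edgeR adjusted p = 0.170 and 0.167). Together the 10 leading tags held 73.0% ± 5.27 of lamina joint counts and 75.8% ± 0.450 of blade counts (SD, n = 2 each).

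Of the 685 listed tags, 426 had a count at S1, and 367 of these in both tissues. A further 27 had counts in the lamina joint only and 32 in the blade only, with at most 7 and 5 counts in all. Of these, 1 and 4, in that order, were among the tested tags and 0 were called. An absence from the other tissue was thus not shown. At the smallest total at S1, 248416 counts, the expected number of detected tags was 327 and 343 in the lamina joint and 332 and 344 in the blade. The tissues overlapped in this number.

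Whether the tissue difference of S1 was also present later was read in the mean difference over S2 to S5. This contrast has no S1 group in it, but the filter, the scaling and the spread were shared by all 20 libraries. Averaged over S2 to S5, 67 of 299 tags (22.4%) differed between the tissues, 29 (9.70%) higher and 38 (12.7%) lower in the lamina joint. With scaling by total counts these were 33 and 24. Without the first lamina joint library of S1 the count was 76 (67 of them shared with the 67), and without the second it was 72 (61 shared). Of the 23 tags called at S1, 12 were called there in the same direction, 6 higher and 6 lower, and 0 in the opposite one. The 12 are 52.2% of the S1 list and 17.9% of the later list. Both lists come from 1 fit, and a tag that is measured well can be called in both.

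For the 9 tags higher at S1, the median difference from S1 to S5 was 3.03, 2.53, 1.58, 1.03 and 0.97 on the log2 scale, and at least 8 of the 9 were positive at each stage. The 14 lower tags had medians of -2.69, -1.98, -1.09, 0.08 and 0.11 from S1 to S5, and 5 of them were negative at S5. Over all tested tags the medians lay between -0.09 and 0.13. The tags were chosen by their S1 values, so their size at S1 is raised by the choice. Single-stage tests called 5 of the 9 higher tags at S2, where 3.01% of all tested tags were called higher. They called none of the 9 at S3 to S5, where 0%, 0.669% and 3.68% of all tags were called higher. Of the 14 lower tags, 8 were called lower at S2 (12.4% of all tags), 4 at S3 (2.34%), 1 at S4 (0.334%) and 0 at S5 (0.334%). In either direction 15.4%, 2.34%, 1.00% and 4.01% of all tags were called at S2, S3, S4 and S5. At S5, 1 of the 14 was called higher in the lamina joint. Whether the course of the higher tags differed from that of the lower tags was not tested.

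**Figure D3:**
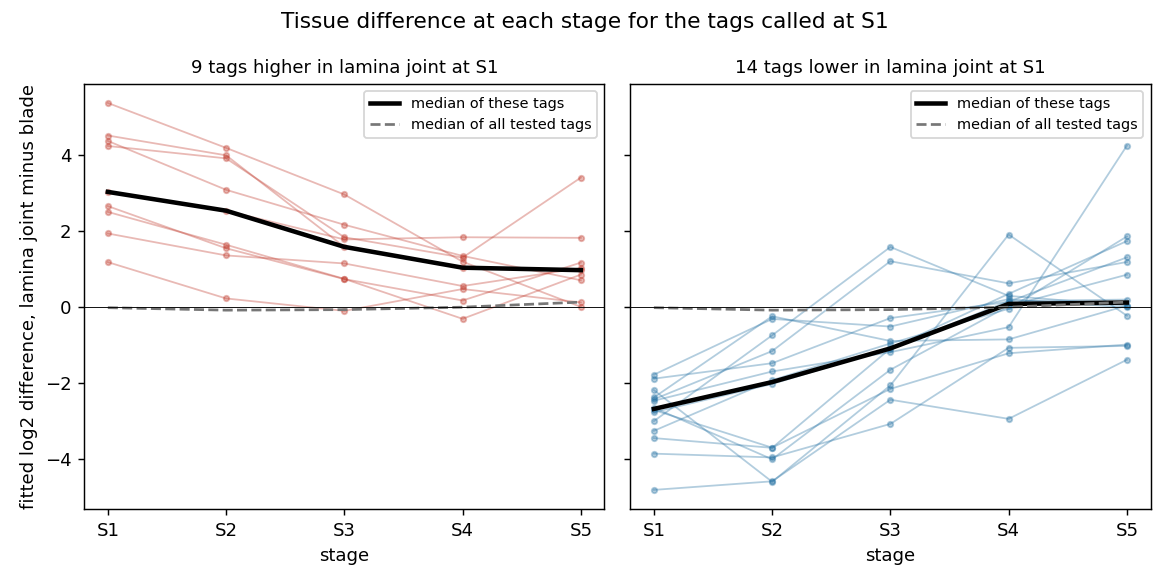
Fitted log2 difference between lamina joint and blade at each stage for the tags called at S1, 1 thin line per tag, with the median of the tags (black) and of all tested tags (dashed grey). The median of the 9 higher tags stays above 0 at all stages, and that of the 14 lower tags reaches 0.08 at S4.

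Change over time after S1 was read as S5 minus S2, averaged over both tissues, in the same fit. Of all tested tags, 54.8% differed, 30.4% upward and 24.4% downward, and with scaling by total counts the calls were 47 upward and 148 downward. Among the 9 tags higher in the lamina joint at S1, 3 fell, none rose, and all 9 had a negative fitted change with a median of -0.79 (log2). For the tag of rank 220 the fitted change of -2.09 had an SE of 3611, so its sign is not informative. Among the 14 lower tags 6 rose, 4 fell and 4 did not pass. The lower tags, like all tested tags, thus included both tags that gained and tags that lost abundance later.

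A direct test of whether the S1 difference departed from the mean difference at S2 to S5 called 8 of 299 tags (2.68%), 3 (1.00%) with a more positive and 5 (1.67%) with a more negative value at S1. Of the 8, 6 were also called at S1. The count depended on the fit. It was 1 with DESeq2 size factors and 1 with TMM factors without the most abundant tag, 18 with DESeq2, and 1 or 2 without any single one of 17 libraries, the exceptions being the first and second lamina joint libraries of S1 (9 and 12) and the second blade library of S3 (9). Without the first lamina joint library of S1, 1 of the 9 was among the 8.

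Among the called tags counted in each S1 library, tag_204 had the largest departure, and it was called in each alternative fit. Its departure was -3.30 ± 0.53 (log2, SE; edgeR adjusted p = 0.00574). That value was -2.83 without the first lamina joint library of S1 and -3.88 without the second. A called tag outside the rule for names, chosen here after its values were seen, had a fitted departure of -5.72 (tag_243), from 0 and 1 counts in the lamina joint and 7 and 0 counts in the blade at S1. At S1 tag_204 had 118 and 254 CPM in the lamina joint and 1594 and 1364 CPM in the blade. At S2 it had 768 and 857 CPM in the lamina joint and 1593 and 1139 CPM in the blade. At S3 the order was turned round, with 1242 and 1337 CPM in the lamina joint and 346 and 519 CPM in the blade. At S4 and S5 both tissues were low, with 18.9 to 48.6 CPM in the lamina joint and 24.7 to 40.3 CPM in the blade. The level of tag_204 thus peaked at S3 in the lamina joint and was highest at S1 and S2 in the blade. The S3 difference did not pass at that stage alone (edgeR adjusted p = 0.0893).

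Tag_095 had a course of similar shape. It had 48.1 and 149 CPM in the lamina joint and 546 and 491 CPM in the blade at S1, and 554 and 904 CPM in the lamina joint and 217 and 416 CPM in the blade at S3. Its S1 difference departed by -2.89 ± 0.61 (log2, SE) with an edgeR adjusted p of 0.0472. It was -2.26 without the first lamina joint library of S1 and -3.83 without the second. The call was lost in 16 of the 20 fits that each left out 1 library, with adjusted p up to 0.180.

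On the positive side, tag_001 departed by 2.62 ± 0.65 (log2, SE; edgeR adjusted p = 0.0495), or by 1.92 without the first lamina joint library of S1. Its lamina joint means were 3703, 868, 445, 288 and 224 CPM from S1 to S5, while its blade means were 162, 53.8, 149, 141 and 116 CPM. Tag_170 departed by 2.39 ± 0.59 (log2, SE; edgeR adjusted p = 0.0495). Its tissues overlapped at S1, with 16.6 and 28.2 CPM in the lamina joint and 13.7 and 19.2 CPM in the blade. These levels rest on few counts, 10 and 7 in the lamina joint and 9 and 8 in the blade. Over S2 to S5 the tag was lower in the lamina joint (-1.99 ± 0.24, log2, SE). At S3 it had 17.9 and 19.0 CPM in the lamina joint and 221 and 129 CPM in the blade. Both departures lost the call in most fits that left out 1 library, 19 of 20 for tag_001 and 18 of 20 for tag_170, with adjusted p up to 0.240 and 0.340.

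The other named tags of the S1 difference followed separate courses. Tag_009 had lamina joint means of 3516, 737, 204, 207 and 156 CPM from S1 to S5 and blade means of 170, 86.0, 45.8, 81.5 and 95.8 CPM. Tag_227 rose between S2 and S5, averaged over the tissues (3.44 ± 0.37, log2, SE; edgeR adjusted p = 2.87e-06), and its lamina joint means of 8.52, 8.63, 54.1, 159 and 294 CPM stayed below its blade means of 221, 213, 297, 1226 and 767 CPM. Tag_148 stayed between 7.41 and 18.5 CPM in lamina joint means, while its blade means were 142, 195, 67.9, 32.1 and 35.9 CPM.

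**Figure D4:**
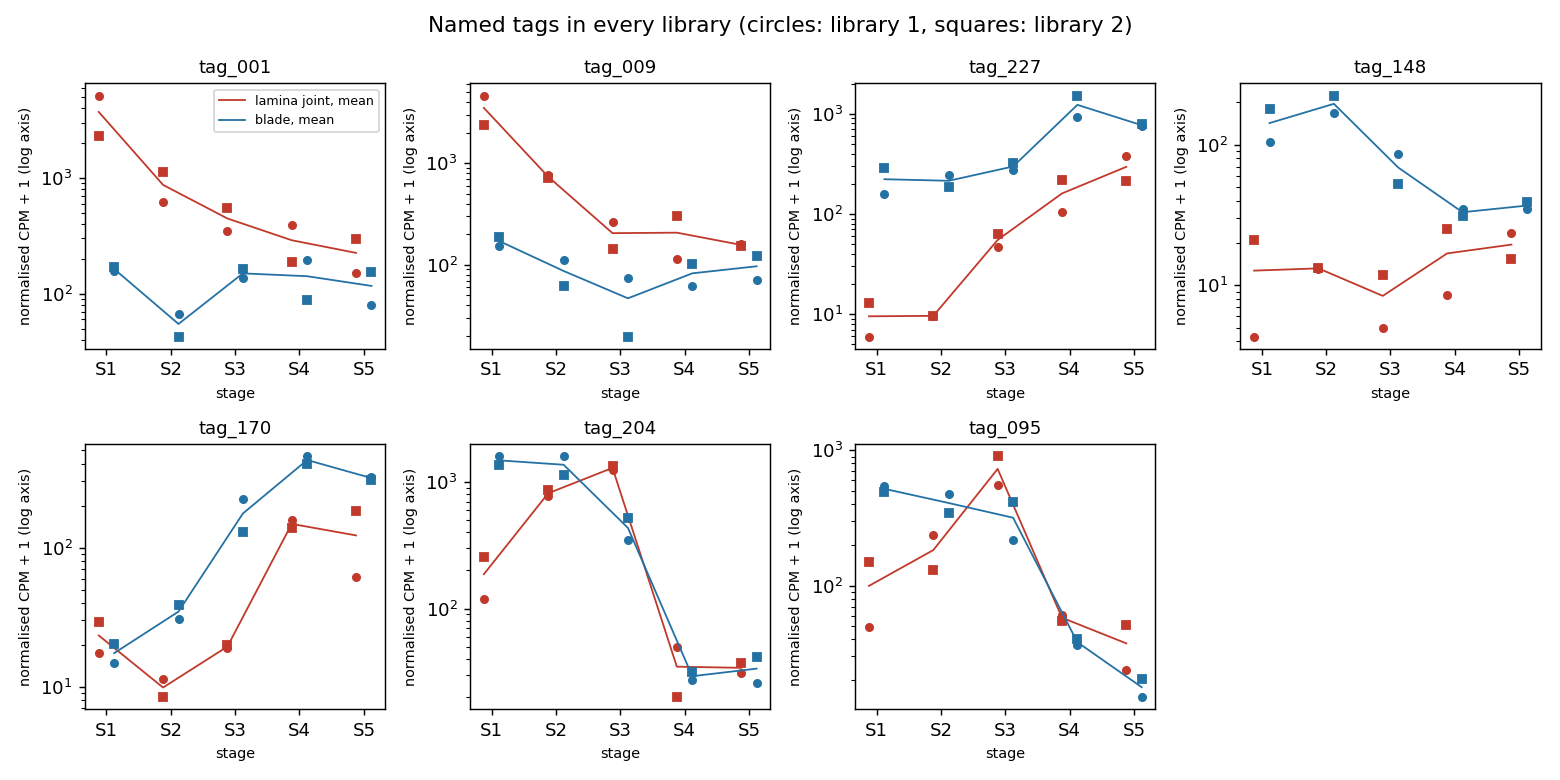
Normalised CPM plus 1 (log axis) of the 7 named tags by stage, with 1 symbol per library and lines through the means of lamina joint (red) and blade (blue). The lamina joint exceeds the blade at S1 for tag_001 and tag_009 and lies under it for tag_227, tag_148, tag_204 and tag_095, and tag_204 crosses between S2 and S3.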

How the data were processed

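The authors deposited whole-number counts per numbered tag for each library, without normalisation. The submitters' processing notes name CASAVA and IRGSP-1.0, with no role or order. How reads were aligned, annotated and assigned when they match several tags is not given in the sources used here, so near-identical miRNAs may share or divide reads. RNA was extracted with TRIzol, per the labels' protocols.

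Groups and replicate numbers came from the sample titles. Totals at S1 lay between 248416 and 640801 counts, and at least 99.9% fell in the tested tags. Counts were tested by quasi-likelihood (edgeR 4.0.16, R 4.3.3) with TMM factors and a filter on low counts (filterByExpr, minimum count 10, minimum total 15) that left 299 tags. A mean for each of 10 groups was fitted to all 20 libraries (10 residual degrees of freedom). Tests were two-sided and adjusted over the tested tags, with a threshold of 0.05. SEs were derived from the F statistic, and log2 CPM used a prior count of 2. Alternatives used DESeq2 1.42.0 and limma 3.58.1, and figures matplotlib 3.10.9. Alternatives on the 4 S1 libraries alone with DESeq2 and limma-voom, and without both second S1 libraries, were added after seeing the data. PCR copies of a molecule are not independent, so intervals give counting error only.

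Named tags are, for the S1 difference and for its departure from later stages, up to 2 per direction with the largest difference among called tags with a mean of at least 10 CPM and a count in each S1 library. The comparison, tests and rules were chosen with earlier results of these data known.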

Additional observations from a re-analysis of the deposited data

Results flagged for a closer look

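The tissue difference at S1 departed from the mean difference at S2 to S5 by a test of the difference itself in 8 tags. Among the named tags, the departure was 2.62 for tag_001, 2.39 for tag_170, -3.30 for tag_204 and -2.89 for tag_095, each on the log2 scale. The count of 8 depended on the fit, and among these named tags only tag_204 was called in each alternative fit. Groups of 2 libraries are too small for a test of single outlying libraries.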

How the results depend on the processing

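The count of 23 tags at S1 was 35 with no filter, 9 with the 8 libraries of S1 and S2, 0 with the 4 S1 libraries alone (4 by limma-voom on those 4, an alternative added after seeing the data), and 11 to 24 without single libraries. The count of 8 departures from later stages was 1 with DESeq2 size factors or with TMM factors without the most abundant tag, 16 with no filter, 3 with a mean of at least 10 CPM, 18 with DESeq2, 4 with limma-voom, 4 with a replicate block over all libraries, and 1 to 12 without single libraries. The cause of these shifts was not tested. The other counts stayed within 1.5 times under all alternatives run, and no named tag changed sign. Named tags were chosen by large differences in the same libraries, so a kept sign says little.

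Scaling moved the S1 split of 9 higher and 14 lower tags to 11 and 10 with DESeq2 size factors and to 10 and 10 with upper quartile factors, which shifted the median of all tags by 0.13 and 0.15 (log2). For S5 minus S2 upper quartile factors gave 74 and 97, with a shift of -0.34, and total counts shifted the median by -0.95. For the departures, total counts gave 1 and 7.

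Replicate numbers are not said to pair libraries. Across tags, deviations of same-numbered libraries correlated between the tissues by 0.56, 0.14, 0.25, 0.32 and 0.06 at S1 to S5, so not every pair passed 0.1, and a replicate block gave 19 tags at S1 when fitted over all libraries and 24 when fitted at S1 alone. Leaving out both second S1 libraries, a choice made after seeing the data, gave 17 tags, 12 of them shared with the 23. Alternatives for numbers of detected tags (at least 5 counts, or a draw to equal depth) lowered them in both tissues.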

Other observations

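Among the 23 tags called at S1 (7.69% of the tested tags), 9 had a called tag at the neighbouring tag number. Of the 209 pairs of neighbouring tested tags, 6 were called in both members, 5 of them with the same sign. Whether this exceeds the number under a random order of tags was not tested. A run of 4 consecutive numbers was higher in the lamina joint throughout and a run of 3 was lower throughout, while a pair of consecutive numbers held 1 higher and 1 lower tag. Across the 16 libraries of S2 to S5, log2 CPM within the runs of 4 and 3 correlated between 0.35 and 0.81 and between 0.37 and 0.80, and within the pair by -0.79. Those libraries differ in depth, tissue and stage, and the part of these in the correlations was not tested. Correlations of other neighbouring tags are not given for comparison. Of all 209 pairs of neighbouring tested tags, 55.5% had the same sign of the S1 difference. What the order of the tag numbers stands for is not given in the sources used here.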
